A study of Mus musculus with 8 samples.

Results

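The 8 epididymal fat pad arrays of this study were set out in 2 sides that were chosen from macrophage transcripts measured on these same arrays. The rich-listed side held Agt Tg replicates 1 and 3 and Wt replicates 1 and 4. The poor-listed side held Agt Tg replicates 2 and 4 and Wt replicates 2 and 3, so that each side had 4 of the 8 arrays and 2 of each genotype. The sides are not groups of the study. Macrophage genes differ between them because the sides were chosen by those genes, and every difference between the sides is given here as a description with no test.

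Each array, an Illumina MouseRef-8 BeadChip, read the RNA of 1 sample of epididymal white adipose tissue (WAT). The mice were male, of strain C57BL6/J and 4 months old. Agt Tg mice overexpress angiotensinogen, the precursor of the angiotensin peptides, in adipose tissue, and wild type (Wt) mice carry no transgene. By the methods, mice of both genotypes received a low fat diet, and the paper names aP2, the promoter of the Fabp4 gene, as the driver of the transgene. That promoter is active in macrophages as well as adipocytes, so the transgene is not limited to adipocytes. Whether the samples of a genotype came from different mice is not stated in the labels.

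White adipose tissue stores triglyceride in adipocytes and holds macrophages, lymphocytes, vessels, fibroblasts and a mesothelial surface around them. Macrophages of fat take up lipid and debris, break them down in lysosomes and export cholesterol. Those that surround dying adipocytes carry Trem2, Gpnmb and Lgals3, while macrophages along vessels carry Cd163, Lyve1 and Mrc1. In bulk tissue fewer cells of a type and less RNA per cell cannot be told apart.

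Of 25696 probes, 11253 to 12284 were detected per array, and 11624 probes of 8285 genes were compared. Values are normalized log2 intensity, and a difference is the mean of the rich-listed arrays minus the mean of the poor-listed arrays. A gene was called apart when all 4 rich-listed arrays lay above, or all below, all 4 poor-listed arrays and the difference was at least 1.5-fold. Wt replicate 3 stood apart from the other arrays, with 39 on the second principal component (22.3% of the variance) where the others lay between -8.75 and -0.54, and with the fewest detected probes. Agt itself was not higher on the arrays labelled Agt Tg, at 7.58 ± 1.19 (SD, n = 4) against 8.14 ± 0.57 (SD, n = 4) in Wt, so genotype is given by label alone. No other kept probe measured Agt, and its ability to detect RNA made from the transgene was not tested. The Agt values therefore cannot show whether the Agt Tg mice overexpressed Agt or whether the labels are correct. Agt was lower on the rich-listed side in each genotype, and its values are given with the adipocyte genes.

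The listing of the sides held for the Agt Tg arrays and held only in part for the Wt arrays. Gpnmb, a glycoprotein of lipid-laden macrophages, was 12.60, 12.64, 12.12 and 12.11 on Agt Tg 1, Agt Tg 3, Wt 1 and Wt 4, and 8.77, 10.26, 10.57 and 12.14 on Agt Tg 2, Agt Tg 4, Wt 2 and Wt 3. Trem2, a lipid-sensing receptor of macrophages, was 11.02, 11.12, 9.97 and 10.20 against 7.99, 8.41, 8.51 and 9.68 in the same order. Trem2 was the 1 gene of the 5 used for the listing that kept the sides apart. For Gpnmb, Mmp12 (a macrophage elastase), Clec4d (a C-type lectin) and Adgre1 (a macrophage surface receptor), Wt 3 of the poor-listed side was higher than Wt 4 of the rich-listed side. The values of this pair were 7.87 and 7.32 for Mmp12, 7.85 and 7.10 for Clec4d, and 7.71 and 7.69 for Adgre1. The mean of the 5 genes was 9.05 on Wt 3 and 8.88 on Wt 4, against 9.29 to 9.78 on the other rich-listed arrays and 6.51 to 7.66 on the other poor-listed arrays. The data thus go against the label for Wt 3 and Wt 4, and the arrays are called rich-listed and poor-listed below.

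**Figure D1:**
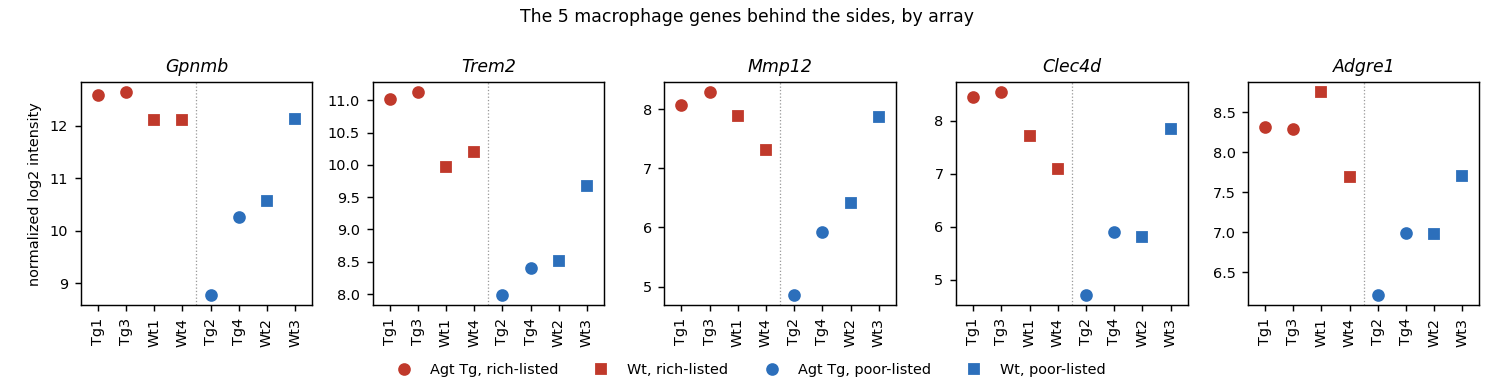
Normalized log2 intensity (vertical axis) of the 5 macrophage genes behind the listing on each of the 8 arrays (horizontal axis; circles Agt Tg, squares Wt; red rich-listed, blue poor-listed). Wt replicate 3, at 9.68 for Trem2 and 12.14 for Gpnmb, sits near or above the rich-listed Wt arrays, while the 2 poor-listed Agt Tg arrays sit far below.

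Over all genes, 221 of 8285 (2.67%) were apart and higher on the rich-listed arrays, and 142 (1.71%) were apart and lower. The median fold was 1.86 for the higher and 1.66 for the lower genes. At 2-fold the counts were 86 and 14, and with no fold asked they were 368 and 391. With median scaling in place of quantile normalization 82.4% of the genes apart were higher, against 60.9% here. Just inside the fold lay Fli1 (0.59) and Zbp1 (-0.59), and just outside Nfe2l2 (0.58) and Dtx2 (-0.58). Without Wt replicate 3, 420 genes were higher and 241 lower, and 329 of the 363 genes apart on all 8 arrays were among them. Without Wt replicate 2 the counts were 346 and 264.

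The Agt Tg arrays carried more of the difference than the Wt arrays did. Of the 363 genes apart, the difference was larger in Agt Tg for 303 and larger in Wt for 60, and 192 reached 1.5-fold within each genotype. Across all 8285 genes the SD of the difference was 0.51 in Agt Tg and 0.36 in Wt. The 2 differences had a Pearson correlation of 0.43 across genes, which are not independent replicates, and 62.6% of genes had the same sign. They share no array, but the arrays of both genotypes were sorted by the same macrophage transcripts. Agreement between them thus follows in part from the choice of the sides and is no independent support. Whether the genotypes differ in the size of the difference was not tested.

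**Figure D2:**
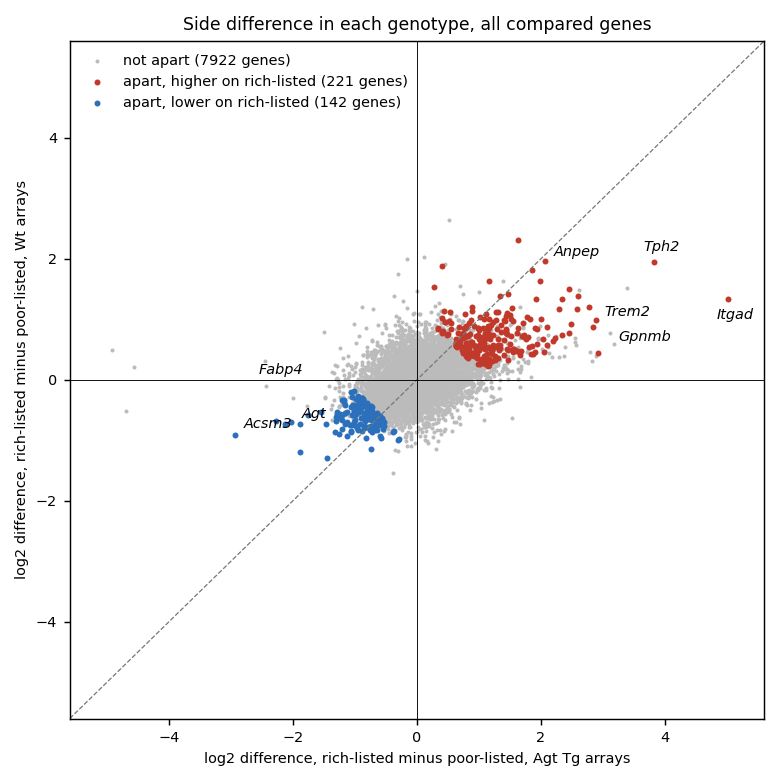
Log2 difference between rich-listed and poor-listed arrays within Agt Tg (horizontal axis) and within Wt (vertical axis) for each of 8285 genes, with equal differences on the dashed line. The 221 red and 142 blue genes are those apart, and 303 of these 363 have the larger difference in Agt Tg.

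The genes with the largest differences included an integrin of leukocytes, a serotonin pathway enzyme and an immediate early gene. Itgad, the integrin alpha D chain of leukocytes, was 10.53, 10.56, 8.34 and 7.41 on Agt Tg 1, Agt Tg 3, Wt 1 and Wt 4 and 5.15, 5.92, 6.02 and 7.08 on Agt Tg 2, Agt Tg 4, Wt 2 and Wt 3, an 8.98-fold difference. Its log2 difference was 3.17, 2.09 on its other probe and 2.05 in the deposited log2 table, which had no background correction and is called the authors' values below. The 2 rich-listed Agt Tg arrays were the highest of all 8. Tph2, the tryptophan hydroxylase known from serotonin neurons, was 11.32, 10.95, 11.34 and 9.97 against 6.68, 7.95, 8.03 and 9.40, a 7.36-fold difference. Here Wt 3 was the highest poor-listed array and Wt 4 the lowest rich-listed array.

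Anpep, aminopeptidase N of myeloid and stromal cells, was 10.10, 10.12, 9.15 and 9.37 on the rich-listed arrays and 7.70, 8.39, 8.19 and 6.43 on the poor-listed arrays, a 4.03-fold difference. Fos, an immediate early transcription factor, was 8.74, 9.38, 8.68 and 8.53 against 4.87, 7.70, 7.08 and 7.72. Its log2 difference of 1.99 was 1.26 when Agt Tg 2 was left out and was 1.23 in the deposited log2 table. The value on Agt Tg 2 lay under the lowest detected value of that array (5.13). Fos was the 1 of 15 measured immediate early genes that was apart (6.67% beside 2.67% of all genes). In this list 10 genes differed upward and 5 downward, with a median of 0.40, and of 0.15 on the authors' values. Jun was lower with no overlap (-0.57). S100a8, a calcium-binding protein of neutrophils and monocytes, was 12.07, 10.89, 12.06 and 10.94 against 8.44, 9.84, 9.68 and 10.66. Mmp3, the matrix protease stromelysin 1, was 3.91-fold higher and Rgs1, a regulator of G protein signalling in leukocytes, 3.96-fold. On the authors' values Rgs1 differed by 1.25 and Mmp3 by 1.11. The probes for histone H2A genes, H2ac15 (3.56-fold) and H2ac7 (3.49-fold), were lowest on Wt replicate 3, at 5.61 and 5.78. Members of that gene family are near copies of each other, so these probes could read more than 1 gene.

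Genes of lipid-associated macrophages and phagocytes are the ones the sides were chosen by or are close to, so their counts are a description of the choice. Of 13 measured lipid-associated macrophage genes 3 were apart and higher (23.1% beside 2.67% of all genes), namely Trem2, Lipa and Lgals3, and none lower. The median difference was 1.29 (0.81 on the authors' values) beside -0.01 over all genes. It was 1.71 within Agt Tg and 0.52 within Wt. Without Wt replicate 3, 10 genes of this list were apart and higher, where 5.16% of all genes were. Of 23 phagocyte genes 5 were apart and higher (21.7% beside 2.67% of all genes), with a median of 0.70. For the phagocyte list, 15 genes were apart and higher and 1 lower without Wt replicate 3. Lgals3, galectin 3, was 13.97, 14.09, 13.87 and 13.86 against 12.49, 12.88, 13.09 and 13.58. The poor-listed array nearest to the other side was again Wt 3. Fcer1g, the signalling chain of Fc receptors, was 2.02-fold and Cyba, a subunit of the phagocyte oxidase, 2.05-fold higher. Of 17 measured resident perivascular macrophage genes 0 were apart in either direction, a share that is not far from the 2.67% and 1.71% of all genes in so short a list. Their median was 0.04, and they ran from Ccl8, a chemokine (1.22), and Mrc1, the mannose receptor (0.51), to Lyve1, a hyaluronan receptor (-0.20), and Cd209d, a lectin (-0.68).

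Of 26 lysosomal hydrolases 4 were apart and higher (15.4% beside 2.67% of all genes), and 22 differed upward, with a median of 0.40. Lipa, the lysosomal acid lipase that frees cholesterol and fatty acids, was 9.39, 9.31, 8.36 and 8.69 on the rich-listed arrays and 6.97, 6.77, 7.72 and 7.51 on the poor-listed arrays, a 3.25-fold difference. The highest poor-listed array for Lipa was Wt 2. Ctsz and Lgmn, cysteine proteases, and Hexa, a subunit of hexosaminidase, were 1.81-fold, 1.60-fold and 1.54-fold higher. Of 20 lysosomal membrane genes 2 were apart and higher (10% beside 2.67% of all genes). Both were subunits of the proton pump (Atp6v0a1, 1.84-fold, and Atp6v1b2, 1.79-fold). Among 10 genes of cholesterol export and the liver X receptor, 3 were apart and higher (30% beside 2.67% of all genes). The list median was 0.33, and 0.105 on the authors' values. In this list 7 genes differed upward and 3 downward, the latter being Cyp27a1 (-0.26), Nr1h3 (-0.16) and Apoe (-0.01). Nceh1, which hydrolyses cholesteryl ester, was 11.16, 11.39, 10.07 and 10.12 against 8.73, 9.72, 9.22 and 10.07, so that Wt 1 and Wt 3 differed only past the second decimal. Pltp, the phospholipid transfer protein, was 1.68-fold higher, and Apoc4, an apolipoprotein, differed by 1.19 here and by 0.44 on the authors' values. Sc5d was the 1 of 14 cholesterol synthesis genes that was apart (7.14% beside 2.67% of all genes). It differed by 0.61 here and 0.22 on the authors' values.

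Some chemokine and cytokine genes were higher on the rich-listed arrays. Of 25 chemokines and receptors 4 were apart and higher (16% beside 2.67% of all genes) and none lower, with a median of 0.77, and of 0.33 on the authors' values. Ccl9 was 13.10, 13.11, 12.96 and 13.13 against 11.84, 12.41, 12.35 and 12.05. Ccl2, which draws monocytes, was 6.36, 6.45, 6.30 and 5.73 against 4.62, 4.80, 4.82 and 5.35, was detected on 1 of the 4 poor-listed arrays, and differed by 1.32 here and 0.43 on the authors' values. All 14 genes of the MHC class II presentation list differed upward, with a median of 0.63 and 1 apart (7.14% beside 2.67% of all genes). The 1 member apart was Cd80, a costimulatory ligand and not a class II gene, at least 1.41-fold higher, as its probe was not well above background on any poor-listed array. Of 21 cytokine and NF-kB genes 4 were apart and higher (19% beside 2.67%), with a median of 0.43, and of 0.16 on the authors' values. Csf2ra, the receptor chain for GM-CSF, was 2.42-fold, and Casp1, the inflammasome protease, 2.04-fold higher, while Il1rn, the interleukin 1 antagonist, differed by 1.23 here and 0.44 on the authors' values. Tnf was at least 1.31-fold higher by the same bound as Cd80. Both were called apart on their measured values, while both bounds lie under 1.5-fold. On the authors' values Tnf differed by 0.20 and Cd80 by 0.18. Of 11 complement genes 3 were apart and higher (27.3% beside 2.67% of all genes) and 1 lower (9.09% beside 1.71%). The chains of C1q were higher (C1qa 1.77-fold, C1qb 1.65-fold, C1qc 1.56-fold) and C2 was 1.56-fold lower. The list median was 0.11, and 0.05 on the authors' values. Of 18 interferon-stimulated genes 0 were apart, with a median of 0.07.

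Of 14 measured proliferation genes 5 were apart and higher (35.7% beside 2.67% of all genes). All 14 differed upward, with a median of 0.47, and of 0.19 on the authors' values. The list means overlapped, as Wt 3 of the poor-listed side (6.65) was above Wt 4 of the rich-listed side (6.59). Birc5, survivin, was 7.92, 7.75, 7.32 and 6.97 against 5.78, 6.13, 6.60 and 6.84. Tk1, thymidine kinase, was 7.94, 7.44, 6.86 and 6.94 against 5.57, 6.14, 6.17 and 6.79. Top2a and Cdk1, of chromosome separation and mitotic entry, were 2.15-fold and 2.05-fold higher. Wt 3 was the highest poor-listed array for Birc5 and Tk1. These probes were dim, and on the authors' values Birc5 differed by 0.60, Tk1 by 0.55, Top2a by 0.44 and Cdk1 by 0.44.

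**Figure D3:**
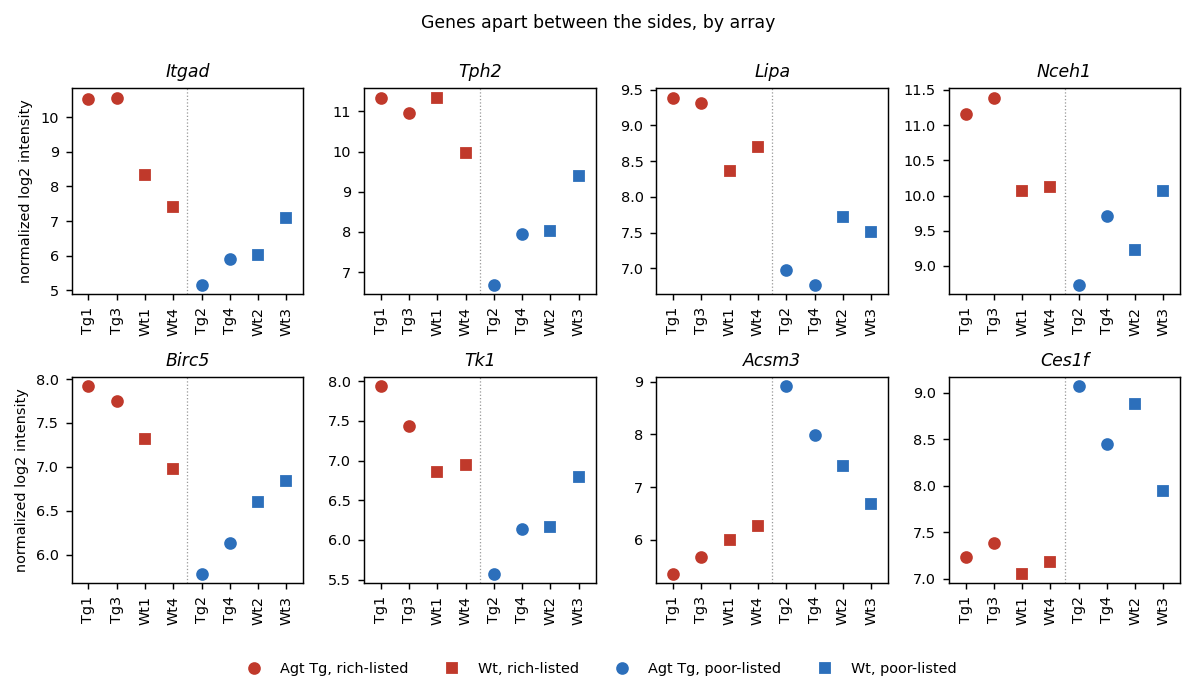
Normalized log2 intensity (vertical axis) on each of the 8 arrays (horizontal axis; circles Agt Tg, squares Wt; red rich-listed, blue poor-listed) for 8 genes apart between the sides. Itgad, Tph2, Lipa, Nceh1, Birc5 and Tk1 are higher and Acsm3 and Ces1f lower on every rich-listed array, with Wt 3 close to the rich-listed Wt arrays for Tk1 (6.79 beside 6.86) and Nceh1.

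Some adipocyte genes were lower on the rich-listed arrays, among them Agt and the glucose transporter gene Slc2a4. Of 24 measured white adipocyte genes 3 were apart and lower (12.5% beside 1.71% of all genes) and 0 higher, 19 differed downward and 5 upward. The median was -0.46 (-0.57 within Agt Tg, -0.26 within Wt, -0.28 on the authors' values and -0.48 without Wt replicate 3). The list mean was 10.03 to 10.49 on the rich-listed arrays and 10.57 to 10.84 on the poor-listed arrays. Agt, which adipocytes express themselves, was 6.74, 6.39, 7.50 and 8.09 on Agt Tg 1, Agt Tg 3, Wt 1 and Wt 4 and 8.80, 8.39, 8.88 and 8.11 on Agt Tg 2, Agt Tg 4, Wt 2 and Wt 3. Its log2 difference was -1.36, and -0.89 on the authors' values. Agt was apart by the narrow gap between Wt 4 (8.09) and Wt 3 (8.11), the pair whose labels the marker genes go against. Without Wt replicate 3 the difference of Agt was -1.65 with no overlap. The 2 rich-listed Agt Tg arrays were the lowest of all 8. Slc2a4, the insulin-responsive glucose transporter GLUT4, was 8.07, 7.92, 8.27 and 8.59 against 9.18, 9.46, 9.52 and 9.06, a 2.13-fold difference. Adig, adipogenin, was 11.49, 11.21, 11.81 and 11.67 against 12.78, 12.51, 12.33 and 12.30, a 1.91-fold difference. For both genes Wt 3 was the lowest poor-listed array.

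Other adipocyte markers differed by under 1.5-fold or overlapped between the sides. Adiponectin (Adipoq) was 13.13, 12.86, 13.27 and 13.21 against 13.32, 13.36, 13.61 and 13.27, a difference of -0.27 that stayed under 1.5-fold. Lep, leptin, and Lpl, lipoprotein lipase, differed by 0.08 and 0.04 with overlapping values, and by -0.19 and -0.28 with median scaling. Their probes read up to 15.15, near the highest value on the arrays (15.23), where differences are compressed. Plin1, the lipid droplet coat protein, differed by -0.50 and Pparg, the adipocyte nuclear receptor, by -0.46, both with overlapping values, and the other Pparg probe gave 0.20. Fabp4, the fatty acid binding protein of adipocytes and macrophages, was 7.16, 6.81, 8.01 and 7.98 against 9.02, 9.83, 8.00 and 8.21, so that it differed in Agt Tg (-2.44) and hardly in Wt (-0.11).

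**Figure D4:**
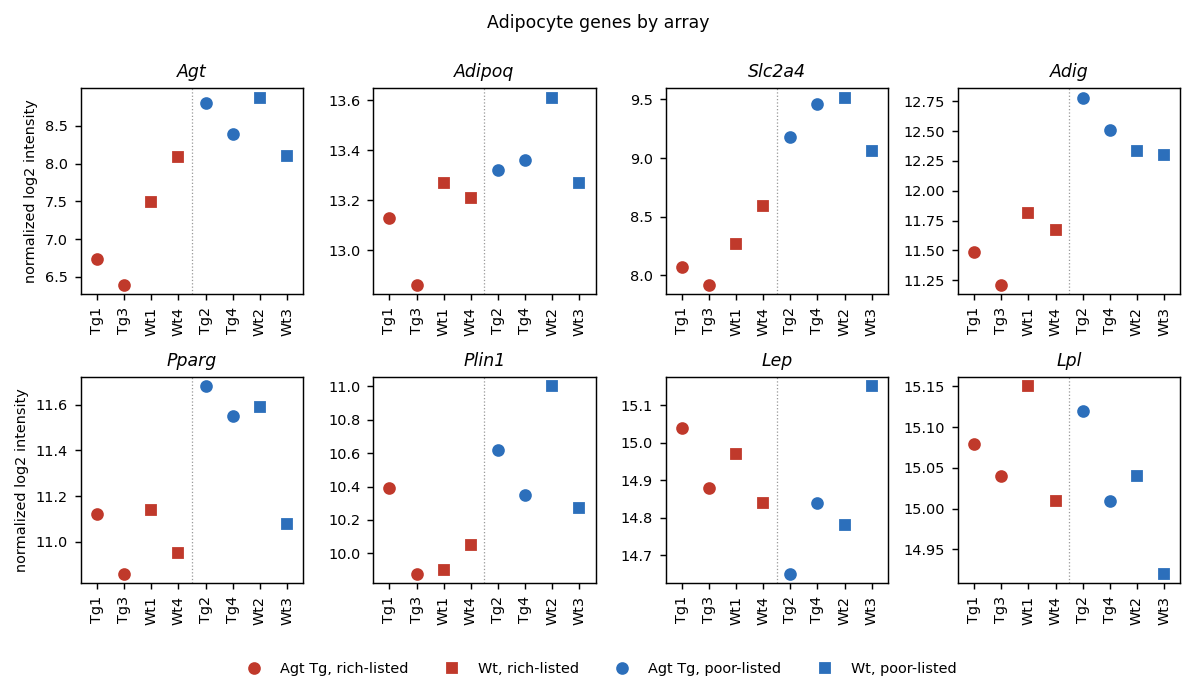
Normalized log2 intensity (vertical axis, scaled per gene) of 8 adipocyte genes on each of the 8 arrays (horizontal axis; circles Agt Tg, squares Wt; red rich-listed, blue poor-listed). Agt, Slc2a4 and Adig are lower on all rich-listed arrays, while Lep and Lpl overlap and span less than 1 log2 unit.

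Lists of fat metabolism held 0 or 1 gene apart each. In lists this short, that is not far from the 2.67% higher and 1.71% lower of all genes. Over all genes 4261 of 8285 differed downward, which is the background for the tallies of direction here. Mogat1, which makes diacylglycerol, was 6.20, 6.61, 6.58 and 6.84 against 8.25, 7.17, 7.93 and 6.86, and was the 1 of 27 genes of fatty acid and triglyceride synthesis that was apart. Its difference of -0.99 was -0.56 on the authors' values. Of 18 genes of mitochondrial fatty acid oxidation 14 differed downward and 1 was apart, Decr1 (dienoyl-CoA reductase), at -0.63 and at -0.39 without Wt replicate 3, where it was highest (10.06). Of 17 genes of branched-chain amino acid breakdown 16 differed downward, with a median of -0.25 (-0.14 without Wt replicate 2, -0.40 without Wt replicate 3) and 0 apart, led by Acadsb (-0.73) and Ivd (-0.57), 2 acyl-CoA dehydrogenases. Of 24 citrate cycle genes 19 differed downward, with a median of -0.23 (-0.10 without Wt replicate 2) and 0 apart. The respiratory chain (42 genes, median -0.07), lipid droplet and lipolysis genes (18 genes, -0.15), fatty acid uptake (19 genes, -0.03) and insulin signalling (16 genes, 0.02) had 0 apart. Of 19 ER stress genes Pdia4, a protein disulfide isomerase, was apart (-0.60), of 13 hypoxia genes Ndrg1 (-0.64, and -0.09 on its other probe), and of 16 glycolysis genes Slc2a4 alone, given above. Plin2, the droplet coat protein of macrophages and adipocytes, ran against its list with no overlap at 0.50.

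Other genes that were lower included enzymes of lipid and drug metabolism. Acsm3, a medium-chain acyl-CoA synthetase, was 5.35, 5.67, 6.00 and 6.26 on the rich-listed arrays and 8.91, 7.99, 7.40 and 6.68 on the poor-listed arrays, a 3.80-fold difference, or -1.01 on the log2 scale of the authors' values against -1.93. Ces1f, a carboxylesterase with near relatives in the genome, was 7.24, 7.38, 7.05 and 7.18 against 9.07, 8.45, 8.88 and 7.94. Cyp2f2, a cytochrome P450, was 2.91-fold lower (-1.54 on the log2 scale, and -0.86 on the authors' values). Gsta4, a glutathione transferase of lipid aldehydes, was 1.94-fold lower (-0.96, and -0.60 on the authors' values). With Gstt1 it made up the 2 of 27 antioxidant genes that were apart (7.41% beside 1.71% of all genes). The antioxidant list was mixed, with 12 genes upward, 15 downward and a median of -0.05. Its members Nfe2l2 (0.58) and Gclm (0.51) were higher with no overlap, under the fold asked. Apcdd1, an inhibitor of Wnt signalling, was 9.93, 9.53, 9.94 and 9.56 against 11.14, 10.82, 10.66 and 10.64. Rxra, the partner of PPAR gamma, was the 1 of 16 adipogenic transcription factor genes apart (6.25% beside 1.71% of all genes). It differed by -0.73 here and -0.40 on the authors' values. Prtn3, a serine protease of neutrophils, was 2.69-fold lower, opposite to S100a8.

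Of 14 collagens 13 differed upward with 0 apart and a median of 0.18, and Col1a1, of fibrillar collagen I, had no overlap at 0.57. Of 39 matrix glycoprotein and remodelling genes, the 2 apart and higher (5.13% beside 2.67% of all genes; list median 0.19, and 0.12 on the authors' values) were Mmp3 and Mmp2, a gelatinase that was 11.49, 11.59, 10.97 and 11.08 against 10.65, 10.40, 10.39 and 10.48. Adipocyte progenitor and fibroblast genes (19 measured, median -0.05), endothelial genes (18, -0.15) and mesothelial genes (11, -0.26) had 0 apart, and the median of the progenitor and fibroblast genes turned to 0.06 without Wt replicate 3 and 0.11 with median scaling. Of 13 smooth muscle and pericyte genes 2 were apart and lower (15.4% beside 1.71% of all genes), with a list median of -0.07 that was -0.35 within Agt Tg and 0.08 within Wt and turned to 0.05 with median scaling. Acta2, smooth muscle actin, was 12.91, 13.32, 13.83 and 13.58 against 14.19, 14.16, 13.86 and 13.97, and Myh11, smooth muscle myosin, differed by -0.69 here and -0.41 on the authors' values. Cytosolic ribosomal protein genes (30, median 0.18) and proteasome genes (30, 0.10) had 0 apart.

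**Figure D5:**
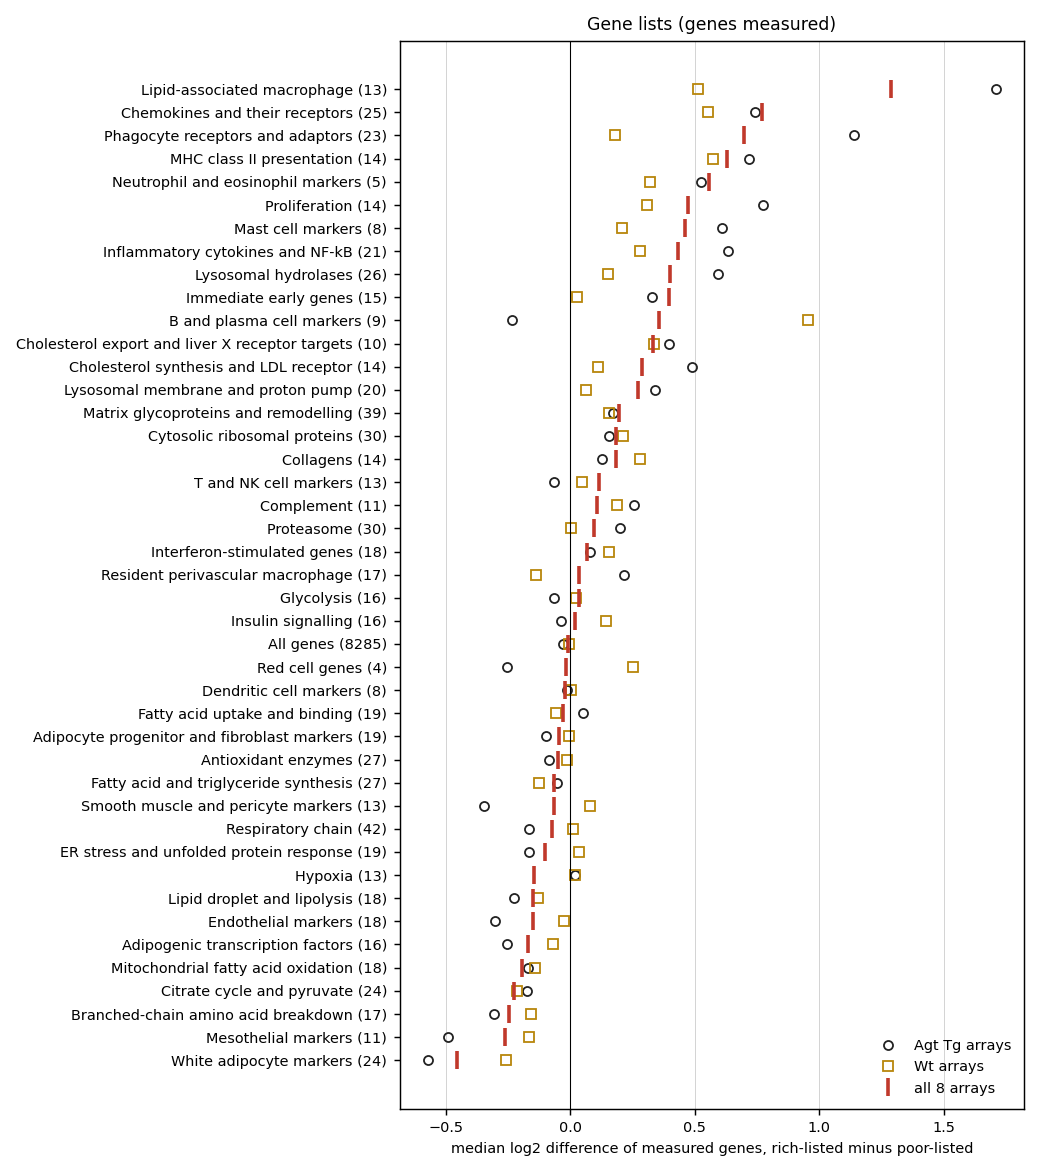
Median log2 difference between rich-listed and poor-listed arrays (horizontal axis) of the measured genes in each list (vertical axis, number of genes in brackets), within Agt Tg (circles), within Wt (squares) and over both (red bars). Lipid-associated macrophage genes lie at the top (1.29) and white adipocyte genes at the bottom (-0.46), with all 8285 genes at -0.01, and B and plasma cell genes have opposite signs in the genotypes. The 5 genes behind the listing and the 2 epididymis or testis genes are not drawn.

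Among markers of other cells that the pads could hold, at most 1 gene per list was apart in each direction. In lists this short, that is not far from the 2.67% higher and 1.71% lower of all genes. The part of these cells in the results was not tested. B and plasma cell genes (9 measured) had 0 apart, with a median of -0.24 within Agt Tg and 0.96 within Wt. Their mean was 7.43 on Wt 4 and 4.85 to 6.40 on the other 7 arrays. Of 8 mast cell genes 7 differed upward with 0 apart, and the list mean ran from 6.65 to 7.43 on the rich-listed and 5.88 to 7.03 on the poor-listed arrays. Of 13 T and NK cell genes 1 was apart, Il7r, an interleukin receptor chain, at 1.72 on 1 probe and 0.38 on the other. Of 5 neutrophil and eosinophil genes 1 (S100a8) was apart and of 4 red cell genes 0. Among 8 dendritic cell genes Cd83 was 2.19-fold higher and Itgae 1.62-fold lower, with Itgae at -0.25 on the authors' values. The 2 measured genes of epididymis or testis, Lcn8 and Adam7, differed by -0.39 and -0.88 with overlapping values.

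Promoter sequence was read for the genes apart because macrophage genes are known to be bound by the ETS factor PU.1. RefSeq windows (build GRCm38.p6), 250 bases before to 50 after a gene's start, were held for 179 of the 221 higher and 109 of the 142 lower genes. Of 9 words searched on both strands, chosen with results known, the ETS word GAGGAAGT was in 17 of the 179 (9.5%), in 3 of the 109 (2.75%), in 3.82% of the 6723 compared genes with a window and in 3.69% of all 27025. The E2F word TTTCGCGC was in 7 of the 179 (3.91%) and in 0.892% of the compared genes. The E-box CACGTG was in 9.5% of the higher and 11.9% of the compared genes, and the AP-1 word TGACTCA in 6.15% and 4.88%. The word TCACGTGA, which overlaps the E-box, was in 0.559% and 2.19%. The other 4, a longer ETS word, the CLEAR word and 2 direct repeats of a nuclear receptor site, were in 2.23% or less of either set. A match is a description and not a binding site. The sides were sorted by macrophage transcripts, so the share of the ETS word among the higher genes may follow from that choice. That share is no independent support for a part of PU.1, which was not tested. The stretches that follow show the ETS word, or its reverse complement, in capitals for 4 genes apart and higher, read 5′ to 3′ on the gene's strand (S100a8 at chr3:90668888-90668917, plus strand; Nceh1 at chr3:27182920-27182949, plus strand; C1qc at chr4:136893091-136893120, minus strand; Hpgds, the prostaglandin D synthase of blood cells, which was chosen after its values were seen and differed by 1.54, at chr6:65144761-65144790, minus strand).
S100a8: ccaacactcccACTTCCTCagactcagaaa
Nceh1: tccgcgctcccACTTCCTCccgacgcagcc
C1qc: ggacggcagacACTTCCTCattttggcaca
Hpgds: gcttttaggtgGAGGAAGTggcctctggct

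The genotype comparison was fitted with and without the sides as a term. With the term, 0 of 11624 probes (0%) passed at adjusted p under 0.05 in limma, with a lowest adjusted p of 0.0986, and 1467 were at unadjusted p under 0.05 (654 higher and 813 lower on the arrays labelled Agt Tg). Without it the counts were 0, with a lowest adjusted p of 0.224, and 1145. The median standard error was 0.205 with the term and 0.217 without. The sides came from these same arrays, so the smaller error is no independent gain. The difference of Agt kept its size by construction, at -0.56 ± 0.28 (SE, limma adjusted p = 0.429) with the sides and ± 0.48 (SE, limma adjusted p = 0.718) without them. Genes were ranked by their brightest kept probe alone, and other probes were not ranked here. Nearest to the threshold among these were Srgn, the granule proteoglycan serglycin (-1.50 ± 0.23, SE), and Cd163, the haemoglobin scavenger receptor (-1.20 ± 0.19, SE), both at limma adjusted p = 0.0986. Cavin1, a caveolar coat protein, had the lowest p among the ranked genes above Wt (1.35 ± 0.23, SE, limma adjusted p = 0.13). None of these passed. The Srgn probe averaged 4.91 on the Agt Tg arrays, under the lowest detected values of the arrays (4.97 to 5.14). The size of the Srgn difference is therefore not well measured. Without Wt replicate 3, 13 probes passed with the sides as a term, and without Agt Tg replicate 4, 3 did.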

How the data were processed

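Per the labels, total RNA of epididymal fat was amplified, labelled with biotin and hybridised to Illumina arrays. The authors deposited bead intensity values with a detection p-value per probe and array, and also log2 values from the package lumi (version not given in the sources used here). This log2 table had the same median (7.11) on every array and kept the ranks of each array's intensities, and it was used as an alternative. Intensities were background corrected by normexp and quantile normalized with an offset of 16 (neqc, limma 3.58.1, R 4.3.3). Probes with detection p under 0.05 on at least 4 of 8 arrays were kept (45.2%). Probes were named through the platform annotation and RefSeq (23978 of 25696 had 1 symbol, 1718 none), and 1 blank row and 1 probe found in 1 table only were left out. A gene is its brightest kept probe.

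Side and genotype entered a linear model, in which the side term is the mean of the differences within each genotype. No p was computed for the sides. Genotype was tested with lmFit and eBayes (trend), with Benjamini-Hochberg adjustment over kept probes. Since separate mice are not stated, p-values cover the spread between samples alone, and the number of arrays limits precision. A probe not well above background on every poor-listed array has only a bound. Its fold sets the rich-listed mean against, per array, the higher of its own value and the lowest detected value. The sides, the 44 gene lists (727 of 1018 genes measured) and the tests were chosen with earlier results of these data known. Genes were named by rule: the 5 marker genes and Agt, the 15 largest differences each way among genes apart, up to 4 genes apart per list, 6 adipocyte genes, and up to 5 genes each way from the genotype fit. The genotype fit was tested on simulated arrays with 11624 probes. There 16% of probes changed 1.5-fold, 74% changed 2-fold, 86% changed 3-fold and 98% changed 4-fold were recovered, with 6 false calls. Simulated probes varied independently of each other, and no simulated array stood apart as Wt replicate 3 did. The shares recovered are therefore no measure of what the fit could detect on the real arrays. Alternatives covered background, scaling, offset, filters, probe choice, the fold, the replicate block and leaving out each array. One more, leaving out Wt replicates 3 and 4, was chosen after seeing the data.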

Additional observations from a re-analysis of the deposited data

Results flagged for a closer look

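A rule that flags about 1 in 20 independent groups by chance was applied to 256 groups. That rate does not hold here, as most genes examined were chosen for lying apart between the sides and the groups share arrays. In 10 of the groups (3.91%), 1 array of a genotype lay far from the other 3. In Wt, replicate 2 was that array for Gpnmb (10.57, others 12.11 to 12.14), Cyba (11.93, others 12.69 to 12.84), Fcer1g (10.93, others 12.45 to 12.64), Nceh1 (9.22, others 10.07 to 10.12) and the mean of the phagocyte list (8.11, others 8.59 to 8.67). It was also the highest for Adipoq (13.61, others 13.21 to 13.27) and for the mean of the fatty acid and triglyceride synthesis list (9.60, others 9.29 to 9.30). In these 7 measures Wt replicate 3 lay with the rich-listed Wt arrays and not with replicate 2. Wt replicate 3 was the highest for Fabp4 (8.21, others 7.98 to 8.01). Agt Tg replicate 2 was the highest of its genotype for Decr1 (9.54, others 9.01 to 9.09) and for the mean of the antioxidant list (9.98, others 9.89 to 9.90).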

How the results depend on the processing

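The main counts of genes apart were 221 higher and 142 lower. They were 111 and 55 with no background correction, 112 and 55 on the authors' log2 values, 350 and 75 with median scaling of each array, 171 and 88 with an offset of 50, 86 and 14 at 2-fold, 368 and 391 with no fold, and 459 and 320 with both Wt arrays 3 and 4 left out, a setting chosen after seeing the data. Leaving out single arrays gave 218 to 420 higher and 144 to 264 lower genes. Genotype calls with the sides as a term, 0 in the main fit, were 1 with median scaling, 14 with both Wt arrays 3 and 4 left out and 0 to 13 with single arrays left out. The cause was not tested. Same-numbered arrays of the 2 genotypes correlated at 0.333, 0.388, -0.0366 and -0.0817 in their deviations from the group means. Replicates 1 and 2 lie on the same side in both genotypes, and replicates 3 and 4 do not. The sides were not removed from the deviations, so these values cannot show whether the numbers pair the samples. The replicate block gave 119 genotype calls and 212 and 141 genes apart, and is not read as a paired analysis. Without the sides, genotype calls were 0 in every setting run. No named gene called apart changed sign in a setting run. Of the 44 list medians 13 changed sign in at least 1 setting, all with a main size of at most 0.117, as did Lep (-0.19) and Lpl (-0.28) with median scaling. Of the list values 662 moved by less than the spread between arrays and 84 by more, and of the gene values 1322 and 74. On the authors' values 33 of the 74 named genes apart were over 1.5 times smaller and 0 turned. Median scaling moved the median of all genes from -0.01 to 0.06. Dim probes limit the folds of chemokine, cytokine and proliferation genes.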

Other observations

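Some large differences fell within 1 genotype and were therefore not among the genes apart. They were chosen after their values were seen. Serpina1b, an alpha-1-antitrypsin gene, was 12.26 and 12.40 on Agt Tg 2 and Agt Tg 4, 7.73 and 7.10 on Agt Tg 1 and Agt Tg 3, and 6.71 to 7.49 on the 4 Wt arrays. Serpina1d, its near copy, was 10.07 and 10.38, 5.75 and 5.58, and 5.53 to 6.05 in the same order, and near copies cannot be told apart. In Wt, Cxcl13, the chemokine that draws B cells, was 8.08 and 9.29 on the rich-listed and 5.75 and 6.35 on the poor-listed arrays, and Cd79a, of the B cell receptor complex, was 6.57 and 7.95 against 5.72 and 4.74. On the Agt Tg arrays Cxcl13 was 4.51 to 5.95.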
